A study of Mus musculus with 18 samples.

Results

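The genes described here encode the nuclear parts of oxidative phosphorylation, the process by which the inner mitochondrial membrane makes ATP. They were taken by symbol from the array's annotation: symbols that start with Nduf, Uqcr, Atp5, Cox4, Cox5, Cox6, Cox7 or Cox8, plus Sdha, Sdhb, Sdhc, Sdhd and Cycs, with the brightest probe set of each gene. A total of 91 genes met this rule, of 18193 genes with a probe set of their own. Of these, 89 passed a filter on dim probe sets and were tested among 14292 genes. Cox7b2 and Cox8b did not pass it and are forms of complex IV subunits known from testis and from heart and muscle. The rule by symbol also takes in 8 genes whose names start with Ndufaf. Their products help to build complex I but are not part of it, so 81 of the tested genes encode subunits or cytochrome c and 8 encode assembly factors.

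Electrons from NADH enter the chain at complex I and electrons from succinate at complex II, pass through complex III to cytochrome c and reach oxygen at complex IV. Complexes I, III and IV pump protons, and the ATP synthase uses the resulting gradient. A few subunits are encoded in mitochondrial DNA, and the rest come from nuclear genes whose promoters often hold sites for nuclear respiratory factor 1 (NRF1) and ETS factors such as GABP. Neurons draw most of their ATP from this pathway.

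The cells were interneurons of the mouse cortex labelled as born in the caudal ganglionic eminence (CGE), sorted for GFP. All mice, controls included, carried GAD65-GFP, a reporter driven by the promoter of a GABA-synthesising enzyme. Controls were GAD65-GFP and the other genotype was Htr3a-KO;GAD65-GFP, a knockout of the serotonin-gated channel subunit Htr3a. Ages were the embryonic days E14.5 (tangential migration) and E18.5 (entry to the cortical plate) and the postnatal day P2 (settling), and each of the 6 combinations of age with genotype had 3 arrays. Each array held RNA of at least 4 pooled brains, and the 3 arrays of a group came from different litters, per the series' design text.

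Values are log2 readings of an oligo(dT)-primed 3' array, so a difference of 1 is a 2-fold change, and levels of different genes cannot be set against each other. The 18 array medians lay between 6.35 and 6.46, and correlations between arrays were 0.949 to 0.996. Of the interneuron markers, Gad1 read between 10.88 and 12.34, Dlx1 between 9.99 and 11.93 and Gad2, the gene of the reporter, between 8.44 and 11.57, while Dlx6 read as low as 5.56 and Prox1 as low as 4.74, under the cutoff used to drop dim probe sets. Neurod6, a marker of excitatory neurons, read 8.91 to 12.38. E14.5 control array 3 stood apart in these markers: Gad2 read 9.34 on it and 11.57 and 11.38 on the other arrays of its group, and the mean of 15 interneuron markers was 8.10 against 9.51 and 9.14. Htr3a was lower on all 9 Htr3a-KO arrays than on the controls of the same age, by 2.07 on average over ages, and where its probe set lies relative to the deleted part is not given in the sources used here. In sorted pools, fewer cells of a type and less RNA per cell cannot be told apart.

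Promoters of the genes that carry the main results are shown first. RefSeq windows on GRCm38.p6, 250 bases before to 50 after the start of the gene, were found for 75 of the 91 genes. Sdhc, Cox6c, Cox4i2, Cox8c, Ndufb9, Uqcrq, Cox4i1, Ndufaf6, Ndufa2, Ndufa4l2, Cox6a2, Atp5a1, Ndufs1, Uqcrc2, Atp5mpl and Uqcrb had none. The 120 bases before the start are printed for Ndufaf4, the member that fell most, for Sdhd, the member with the smallest p for genotype, and for Uqcr11 and Atp5e, which rose between E18.5 and P2 in controls. They lie on the plus strand at chr4:24897963-24898082 and on the minus strand at chr9:50603850-50603969, chr10:80406822-80406941 and chr2:174464102-174464221. Capitals mark matches, on either strand, to the NRF1 motif, GCGCA then any base then GCGC (in Ndufaf4 and Sdhd) or the ETS motif CCGGAAG (in Sdhd, Uqcr11 and Atp5e).
Ndufaf4: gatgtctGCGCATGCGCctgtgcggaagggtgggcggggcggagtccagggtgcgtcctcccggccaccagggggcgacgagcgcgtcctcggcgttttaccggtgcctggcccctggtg
Sdhd: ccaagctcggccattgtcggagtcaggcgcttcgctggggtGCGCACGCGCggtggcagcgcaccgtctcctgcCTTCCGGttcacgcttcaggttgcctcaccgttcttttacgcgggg
Uqcr11: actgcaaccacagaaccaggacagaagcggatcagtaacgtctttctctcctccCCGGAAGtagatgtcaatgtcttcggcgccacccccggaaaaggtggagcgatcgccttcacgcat
Atp5e: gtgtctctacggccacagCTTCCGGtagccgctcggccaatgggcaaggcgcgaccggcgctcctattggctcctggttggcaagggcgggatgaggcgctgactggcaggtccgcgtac
The NRF1 motif was found in the windows of 17 of the 75 genes (22.7%) and of 5.19% of all 27025 genes with a window. The 27025 include genes that were not tested here, so they are a wider background than the tested genes. The ETS motif was found in the windows of 19 genes (25.3%, against 9.93% of all). The motif of the estrogen-related receptors, TCAAGGTCA, was in 2 windows, those of Sdhd and Atp5g3 (2.67%, against 0.466%), and the YY1 motif AANATGGCG in 10 (13.3%, against 2.76%). In the printed Sdhd stretch the NRF1 and ETS matches lie within the last 80 bases before the start. Stretches were printed only where they held a match. Among the other genes that passed with age within a genotype, Ndufa1, Ndufa4, Ndufa13, Ndufaf3, Ndufaf7, Uqcrfs1, Cox7a1 and Cox7c had windows without a match to any of these motifs. Genes that rose and genes that fell thus both include windows with a match and windows without. A match describes letters and does not show that a factor binds.

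Across the 6 groups the genes of the pathway were nearly level. The span between the highest and the lowest group mean had a median of 0.31 over the 89 genes, and 0 of 89 spanned more than 1. Over all 14292 genes the median span was 0.54 and 18.6% spanned more than 1, and over the 2997 genes with a mean reading of at least 10 the median was 0.49 and the share 11.3%. The smallest spans were those of Uqcrb (0.08), a complex III subunit, and Ndufc2 (0.10), a complex I subunit. From E14.5 to P2 in controls the other Uqcrb probe set differed by 0.08. The other Ndufc2 probe sets differed by -0.24 and -0.23, and none of these passed. Atp5a1, the alpha subunit of the ATP synthase, read between 12.74 and 13.08 on all 18 arrays, and its group means differed by at most 0.12. The largest spans were those of Ndufaf4 (0.91), Cox7c (0.80), Cox7a1 (0.65), Uqcr11 (0.65) and Ndufaf6 (0.61).

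**Figure D1:**
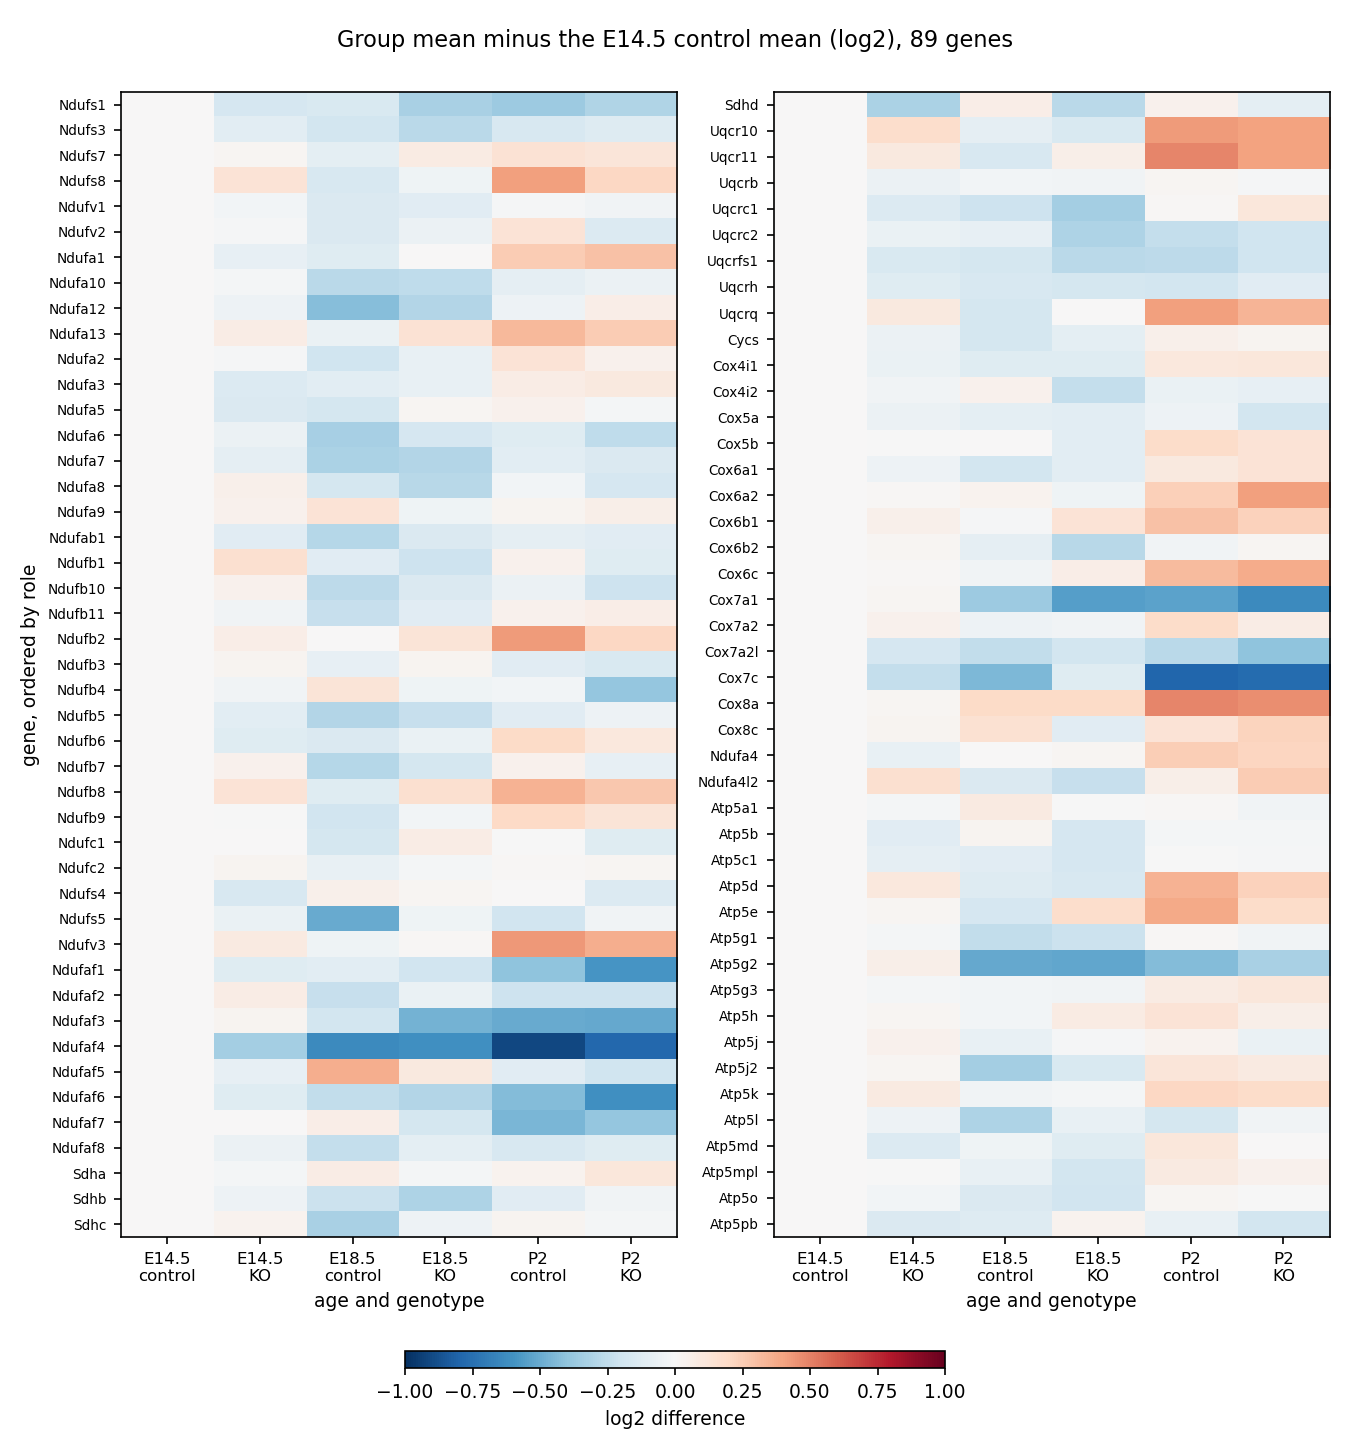
Group mean minus the E14.5 control mean (log2, colour from -1 to 1) for the 89 genes in rows, ordered by role, and the 6 groups of age and genotype in columns. Most cells are pale, and the darkest blue cells are Ndufaf4 and Cox7c at P2.

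From E14.5 to P2, controls changed in few of these genes. Of the 89 genes, 1 rose and 8 fell (10.1%) at an adjusted p under 0.05 in limma, while 39.2% of all genes tested passed (21.2% were lower), and 40.5% of the genes reading at least 10. In Htr3a-KO cells 5 rose and 6 fell (12.4%), beside 41.5% of all genes (15.6% higher and 26.0% lower) and 44.3% of those reading at least 10. The median difference over the 89 genes was 0.02 in controls and 0.03 in Htr3a-KO, and over all genes -0.04 and -0.07. The median size of the difference in controls, sign aside, was 0.12 for the 89 genes and 0.31 for all genes. The 95% interval of the difference lay within 0.5 of 0 for 58 of the 89 genes in controls (65.2%) and for 35.3% of all genes. Scaling moved the split of calls: with quantile normalization 7 rose and 6 fell in controls and 6 and 2 in Htr3a-KO, and with median centring 1 rose and 11 fell, and 3 and 7. Without E14.5 control array 3, the array low in interneuron markers, the control count of 9 was 6 (1 higher and 5 lower), and Ndufaf4, Ndufaf3, Ndufs1, Cox7a1, Cox7c and Cox8a passed. The Htr3a-KO count of 11 was 5 without E14.5 array 1, 6 without E14.5 array 2 and 5 without P2 array 2.

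**Figure D2:**
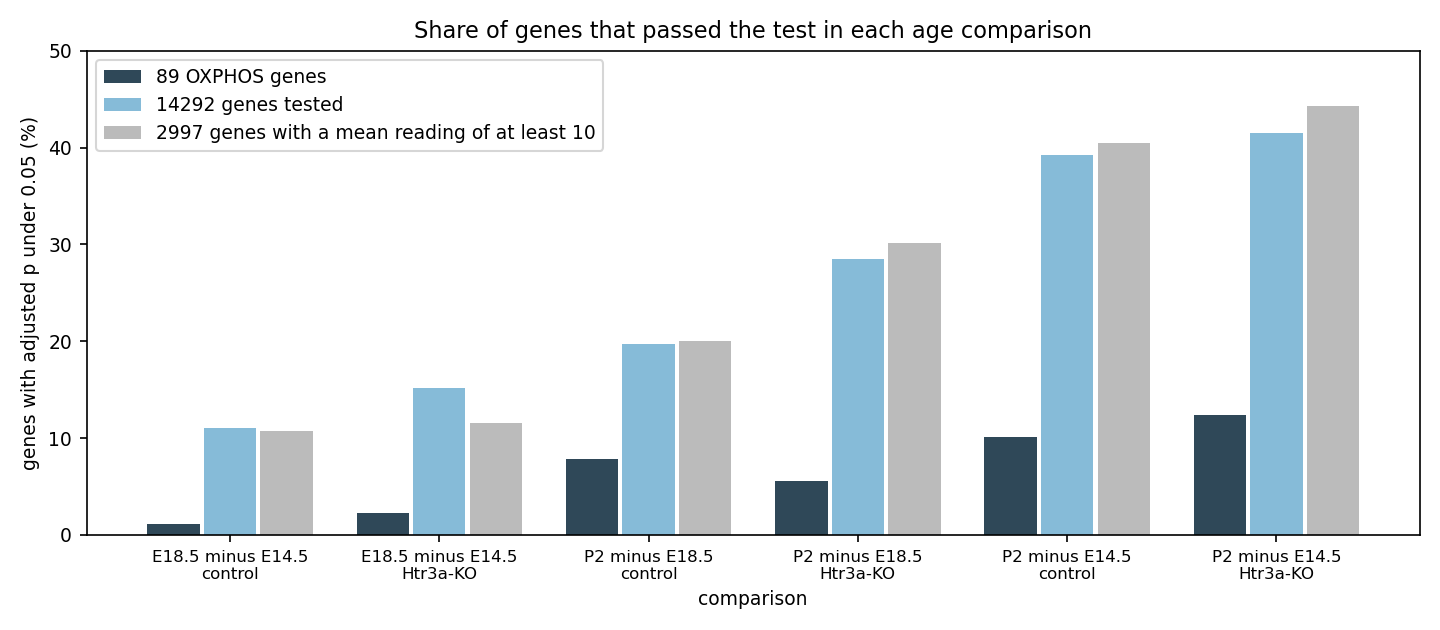
Percent of genes with an adjusted p under 0.05 in each of 6 age comparisons, for the 89 genes of the pathway, all 14292 genes tested and the 2997 genes with a mean reading of at least 10. The bar of the 89 genes is the shortest in each comparison, 10.1% against 39.2% for P2 against E14.5 in controls.

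The 2 genotypes share no array, so their changes can be set side by side. Of the 89 genes, 71 differed in the same direction from E14.5 to P2 in both (79.8%, and 82.3% of all genes). Passing genes in both genotypes were Cox7a1, Ndufaf3, Ndufaf4 and Ndufaf7, which fell, and Cox8a, which rose. These are 5 of the 9 called in controls and 5 of the 11 called in Htr3a-KO, a smaller share than over all genes, where 4362 were called in both, of 5601 in controls and 5938 in Htr3a-KO. That difference in shares was not tested. A contrast of the mean of both genotypes, added after the data were seen, called 11 genes higher and 11 lower (24.7%), beside 54.2% of all genes (22.3% higher and 31.9% lower) and 58.7% of those reading at least 10. With quantile normalization this split was 19 and 9, and with median centring 5 and 14.

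The assembly factors of complex I leaned lower with age. All 8 had a lower mean at P2 than at E14.5 in both genotypes, with a median difference of -0.42 in each, whereas the median of the 81 subunits was 0.04 in controls and 0.05 in Htr3a-KO (-0.03 and -0.01 with median centring). Of all 14292 genes, 7798 had a lower mean at P2 in controls and 8212 in Htr3a-KO. In controls 3 of 8 fell (Ndufaf3, Ndufaf4 and Ndufaf7), and in Htr3a-KO 5 of 8 fell (the same 3 with Ndufaf1 and Ndufaf6), while 21.2% and 26.0% of all genes fell. With quantile normalization 3 and 1 fell, and with median centring 5 and 6. In the quantile-normalized Htr3a-KO arrays 7 of the 8 had a negative difference. The mean of both genotypes called 6 of the 8 lower. The mean reading of the 8 factors was 9.31 to 9.39 on the E14.5 control arrays, 9.11 to 9.27 at E18.5 and 8.78 to 9.07 at P2, with no overlap between ages. On the Htr3a-KO arrays it was 9.23 to 9.33 at E14.5 and 9.04 to 9.30 at E18.5, which overlap, and 8.90 to 8.99 at P2. The actin 3' minus 5' reading, a measure of RNA quality that grows as RNA shortens, moved with age in controls. It was 0.57 to 0.76 at E14.5 and 0.90 to 1.22 at P2, without overlap. In Htr3a-KO it was 0.65 to 0.94 and 0.75 to 0.92, which overlap. The Gapdh 3' minus 5' reading overlapped between these ages in controls, at 1.63 to 1.99 and 1.77 to 2.2. With the Gapdh reading as a covariate, the number of genes called between these ages in controls was not among the counts listed below as moved. The part of the actin reading in the control changes of the assembly factors and of the subunits described next was not tested.

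**Figure D3:**
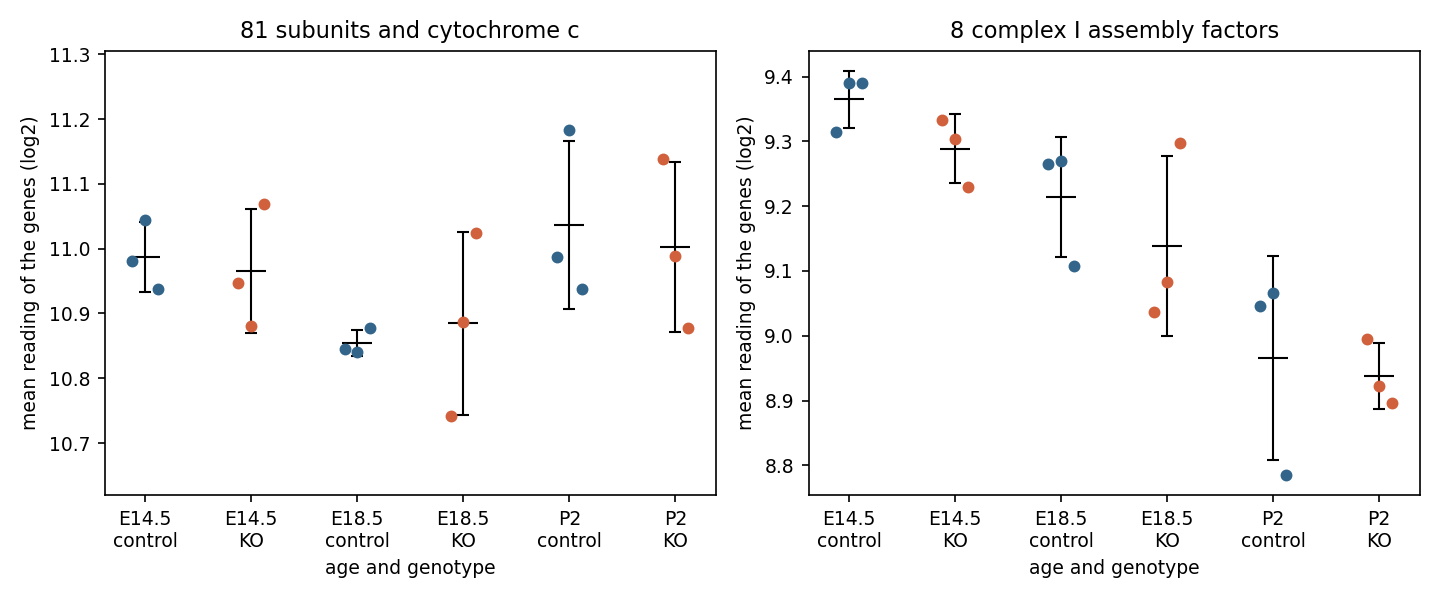
Mean reading (log2) of the 81 subunit and cytochrome c genes (left) and of the 8 complex I assembly factors (right) on each of the 18 arrays, with the mean and SD of each group of 3 arrays. Both axes span the same number of log2 units. The assembly factor means lie at 9.31 to 9.39 in E14.5 controls and at 8.78 to 9.07 in P2 controls, and the subunit means overlap between these ages.

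Ndufaf4 and Ndufaf3 form a pair that acts early in complex I assembly. Ndufaf4 read 10.75, 10.60 and 10.52 on the E14.5 control arrays, 10.13, 9.76 and 10.06 at E18.5, and then 9.45, 9.80 and 9.88 at P2. All E14.5 control arrays were above all later ones. The fall to P2 was 0.91 ± 0.12 (SE, n = 3 against 3 arrays, adjusted p = 4.58e-05, limma), a 1.88-fold change, and the fall to E18.5 alone was 0.64 (adjusted p = 0.00408). In Htr3a-KO Ndufaf4 read 10.36, 10.24 and 10.26 at E14.5, below every control of that age, and 9.79, 9.75 and 9.98 at P2. The fall was 0.45 ± 0.12 (adjusted p = 0.00931, limma), and 0.33 with quantile normalization (adjusted p = 0.0583). The second probe set of Ndufaf4 fell less in controls, by 0.35 (adjusted p = 0.0334 over probe sets), and by 0.49 in Htr3a-KO (adjusted p = 0.00516).

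Ndufaf3 read 9.31, 9.56 and 9.32 in E14.5 controls and 9.05, 8.98 and 8.65 in P2 controls. In Htr3a-KO it read 9.48, 9.28 and 9.52 at E14.5 and 9.05, 8.84 and 8.77 at P2. The ages did not overlap in either genotype, and the falls were 0.50 (adjusted p = 0.00389) and 0.54 (adjusted p = 0.00215, limma). In Htr3a-KO the fall was already 0.50 at E18.5 (adjusted p = 0.0135).

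Ndufaf7, a methyltransferase that modifies a core subunit of complex I, read 8.43, 8.64 and 8.69 in E14.5 controls, 8.60, 8.85 and 8.51 at E18.5, then 8.27, 8.23 and 7.90 at P2. It was low only at P2, and fell by 0.45 from E14.5 (adjusted p = 0.0147, limma) and by 0.52 from E18.5 (adjusted p = 0.0138). The first of these had an adjusted p of 0.0555 without E14.5 control array 3 and 0.0790 without P2 control array 3. Ndufaf1 and Ndufaf6, which act in the assembly of the membrane arm and of early intermediates, fell by 0.47 and 0.49 in Htr3a-KO (adjusted p = 0.0252 and 0.0314, limma). The Ndufaf1 fall missed the threshold without array 1 or 2 of either age (adjusted p = 0.0521 to 0.0937), and the Ndufaf6 fall without E14.5 array 1 or 2 or P2 array 2 or 3 (0.0592 to 0.157). The same was true of the Htr3a-KO fall of Ndufaf7, by 0.39, without E14.5 array 1 or 2 or P2 array 2 or 3 (0.0698 to 0.139). In controls the differences of Ndufaf1 and Ndufaf6 were -0.40 and -0.44 (adjusted p = 0.0567 and 0.0550). Ndufaf2, Ndufaf5 and Ndufaf8 differed by -0.21, -0.11 and -0.16 in controls from E14.5 to P2 and did not pass. Ndufaf5 fell by 0.48 from E18.5 to P2 in controls (adjusted p = 0.0422), with readings of 9.87, 9.91 and 9.67 at E18.5 but 9.69, 9.35 and 8.98 at P2 that overlap by 1 array.

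**Figure D4:**
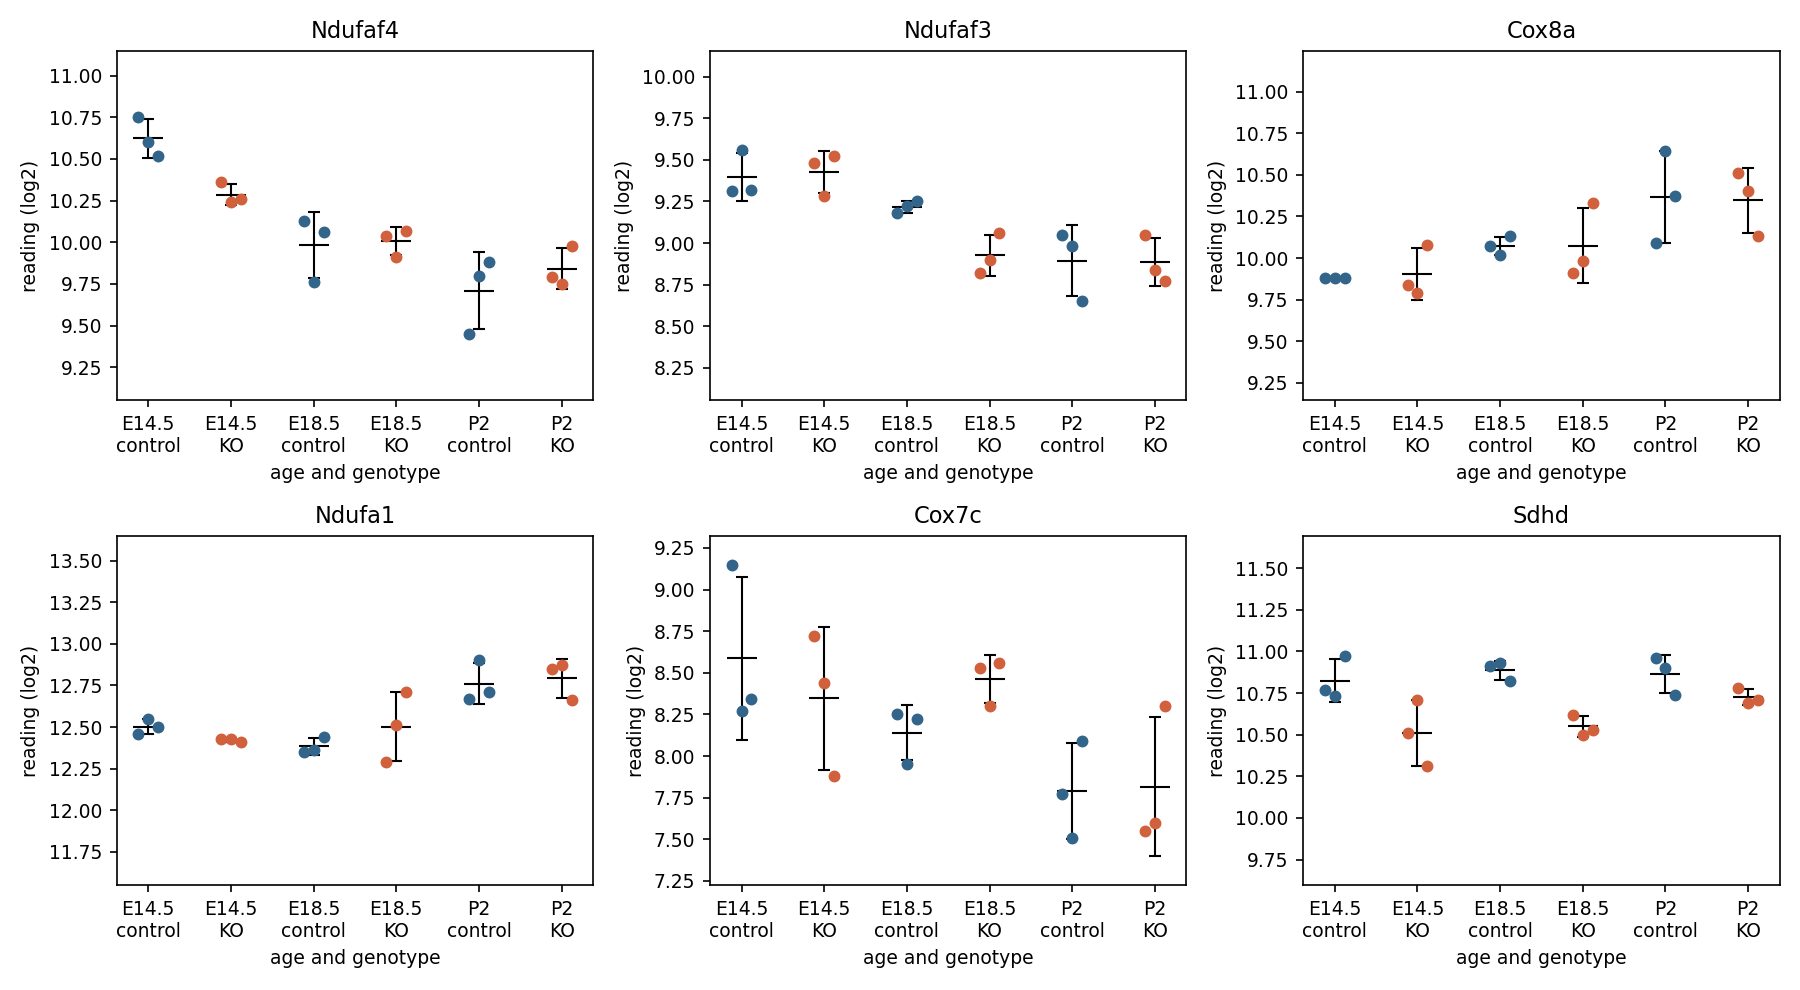
Readings (log2) of Ndufaf4, Ndufaf3, Cox8a, Ndufa1, Cox7c and Sdhd on each array, by age and genotype (KO, Htr3a-KO), with the mean and SD of each group of 3 arrays. All panels span the same number of log2 units. Ndufaf4 reads 10.52 or more on the E14.5 control arrays and 9.88 or less on the P2 control arrays, and Sdhd is lower on every Htr3a-KO array than on all controls of the same age at E14.5 and E18.5.

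Within complex I itself few genes passed. Of the 6 core subunits, 1 fell in controls from E14.5 to P2 and 0 passed in Htr3a-KO. Of the 28 accessory subunits 0 passed in controls and 1 rose in Htr3a-KO. Over all genes 39.2% passed in controls and 41.5% in Htr3a-KO. The core subunit was Ndufs1, an iron-sulfur protein of the arm that takes electrons from NADH. It read 11.01, 11.17 and 11.14 at E14.5 and 10.67, 10.86 and 10.70 at P2 in controls, without overlap, and fell by 0.36 (adjusted p = 0.00810, limma). In Htr3a-KO it read 11.02, 11.02 and 10.78 at E14.5 and 10.86, 10.79 and 10.76 at P2, which overlap. The accessory subunit was Ndufa1, which the membrane arm needs for assembly. In Htr3a-KO it read 12.43, 12.43 and 12.41 at E14.5 and 12.85, 12.87 and 12.66 at P2, a rise of 0.37 (adjusted p = 0.00996, limma). Ndufa1 in controls read 12.46, 12.55 and 12.50 on the E14.5 arrays, 12.35, 12.36 and 12.44 on those of E18.5 and 12.67, 12.90 and 12.71 on those of P2, with P2 above both earlier ages on every array.

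None of the 4 complex II genes passed from E14.5 to P2 in either genotype (limma), with 0 at an unadjusted p under 0.05. Of all genes 39.2% passed in controls and 41.5% in Htr3a-KO. For Sdha, Sdhb, Sdhc and Sdhd the differences from E14.5 to P2 in controls were 0.04, -0.11, 0.03 and 0.04. Sdha, the flavoprotein that oxidises succinate, read between 11.30 and 11.62 in E14.5 controls and between 11.44 and 11.62 in P2 controls. Cytochrome c, the carrier between complexes III and IV, read 12.55, 12.61 and 12.24 at E14.5 and 12.31, 12.68 and 12.56 at P2 in controls, which overlap. It differed by 0.08 in Htr3a-KO. Its other bright probe sets did not move alike. The first differed by 0.16 in controls and rose by 0.38 in Htr3a-KO (adjusted p = 0.0208, limma over probe sets), and the second differed by -0.26 and -0.06.

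In complex III, 2 of 8 genes (25%) fell in controls from E14.5 to P2, near the 21.2% of all genes that fell. In Htr3a-KO 0 of the 8 passed, beside 41.5% of all genes. The genes that fell in controls were Uqcrfs1, the Rieske iron-sulfur protein, and Uqcrc2, a core protein, by 0.26 and 0.24 (adjusted p = 0.0312 and 0.0358, limma). Uqcrfs1 read 11.44, 11.51 and 11.53 at E14.5 and 11.16, 11.34 and 11.20 at P2, without overlap. These are small changes, 1.20-fold and 1.18-fold, and Uqcrfs1 missed the threshold without E14.5 array 2 or 3 or P2 array 1 or 3 (adjusted p = 0.0800 to 0.0985), as did Uqcrc2 without E14.5 array 2 or 3 or P2 array 3 (0.0735 to 0.166).

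Complex IV held the subunits with the largest differences from E14.5 to P2 in controls, Cox7c and Cox7a1, and the only riser. Cox8a, the widely expressed form of the smallest subunit, read 9.88 on each of the 3 E14.5 control arrays and 10.09, 10.64 and 10.37 at P2. In Htr3a-KO it read 9.84, 9.79 and 10.08 at E14.5 and 10.51, 10.40 and 10.13 at P2. P2 was above E14.5 on every array in both genotypes, with rises of 0.49 (adjusted p = 0.0141, limma) and 0.44 (adjusted p = 0.0218). Without P2 control array 2 the control rise was 0.35 (adjusted p = 0.0761), and the Htr3a-KO rise had an adjusted p of 0.0646 to 0.0867 without array 1 or 2 of either age. A second bright Cox8a probe set rose by 0.40 in both genotypes, and a dim one differed by 0.09 and -0.03. Cox8c, a form known from testis, differed by 0.14 and 0.20.

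Cox7a1, the heart and muscle form of a small subunit, was dim. Its control readings were 5.67, 5.70 and 5.83 (E14.5), 5.40, 5.52 and 5.20 (E18.5) and 5.25, 5.33 and 5.02 (P2), and the filter lay at 5.255. Its fall of 0.53 (adjusted p = 0.00885, limma) in controls and 0.65 in Htr3a-KO (adjusted p = 0.00212) therefore ended near the level below which probe sets were left out. Cox7a2, the form found in most tissues, differed by 0.18 and 0.03, and Cox7a2l, which links complexes III and IV, by -0.27 and -0.23, and neither passed in either genotype. In the mean of both genotypes Cox7a2l was lower by 0.25 (adjusted p = 0.0194, limma). Its other probe sets also had negative differences. The largest was a fall of 0.32 in controls (adjusted p = 0.0290, limma over probe sets) and a difference of -0.24 in Htr3a-KO.

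Cox7c, another small subunit, gave 9.15, 8.27 and 8.34 (E14.5), 8.25, 7.95 and 8.22 (E18.5) and 7.77, 7.51 and 8.09 (P2) in controls. The ages E14.5 and P2 did not overlap, and the fall was 0.80 (adjusted p = 0.0232, limma). Array 1 of E14.5 stood apart, and without it the fall was 0.52 (adjusted p = 0.131). Without P2 array 1 or 2 the adjusted p was 0.0534 or 0.0902. In Htr3a-KO the readings were 8.72, 8.44 and 7.88 at E14.5 and 7.55, 7.60 and 8.30 at P2, which overlap. The other Cox7c probe set, dimmer at a mean of 5.80, fell by 1.14 in controls (adjusted p = 0.00396 over probe sets) and 0.87 in Htr3a-KO (adjusted p = 0.0194).

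Cox6a2, the muscle form of another subunit, rose in Htr3a-KO by 0.39 (adjusted p = 0.00537, limma), from 6.95, 6.83 and 6.94 at E14.5 to 7.37, 7.33 and 7.20 at P2. In controls the difference was 0.24 (adjusted p = 0.0705). Its paralog Cox6a1 differed by 0.10 and 0.19. Cox6c rose in Htr3a-KO by 0.36 (adjusted p = 0.0434) and differed by 0.32 in controls. Cox6b1 and Cox6b2 differed by 0.29 and -0.04 in controls, and Cox4i1 and Cox4i2, the forms used in most tissues and in lung, by 0.11 and -0.07. Ndufa4, now counted with complex IV, rose by 0.29 in Htr3a-KO (adjusted p = 0.0399) and differed by 0.25 in controls, and its relative Ndufa4l2 differed by 0.10 and 0.06 in that order. Without E14.5 array 1 or 2 or P2 array 1 or 2, Cox6c had an adjusted p of 0.0757 to 0.154, and without any 1 of the 6 arrays Ndufa4 had one of 0.0579 to 0.110.

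None of the 17 ATP synthase genes passed from E14.5 to P2 in either genotype at an adjusted p under 0.05 in limma, and 1, Atp5d in controls, had an unadjusted p under 0.05. Of all genes 39.2% passed in controls and 41.5% in Htr3a-KO. The differences of the ATP synthase genes ran from -0.44 to 0.38 in controls, with a median of 0.04. The beta subunit Atp5b read 12.68, 12.78 and 12.79 at E14.5 and 12.85, 12.75 and 12.59 at P2 in controls, which overlap. The lowest value was that of Atp5g2, one of 3 genes for the same membrane ring subunit (-0.44, adjusted p = 0.201), while Atp5g1 and Atp5g3 differed by 0.01 and 0.08. A dim second probe set of Atp5c1 (mean 6.63) rose by 0.66 in controls and 0.61 in Htr3a-KO (adjusted p = 0.0307 and 0.0416, limma over probe sets). The bright Atp5c1 probe set that stood for the gene differed by -0.01 and 0.08.

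**Figure D5:**
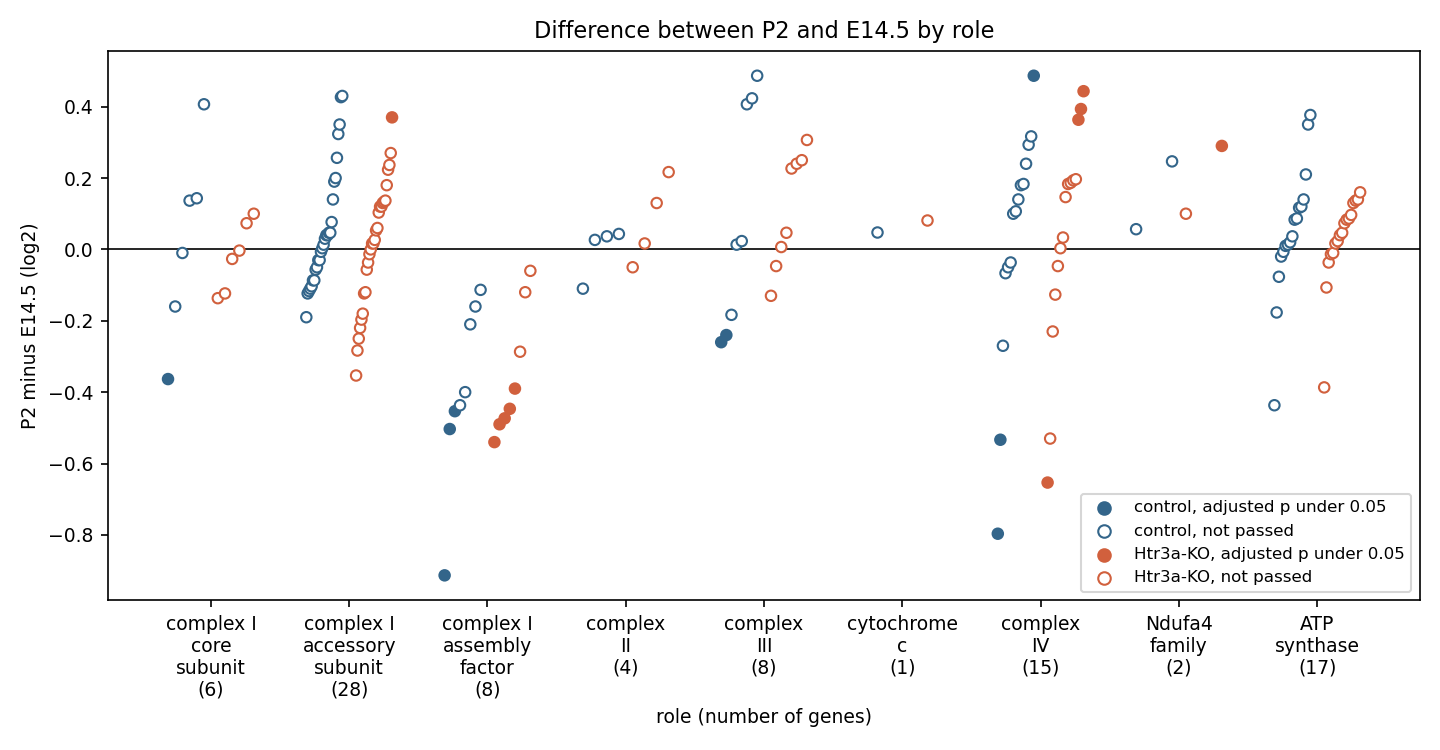
Difference between P2 and E14.5 (log2) for each of the 89 genes, grouped by role, with controls in blue and Htr3a-KO in orange. Filled points passed at an adjusted p under 0.05 and open points did not. All 8 assembly factors lie below 0 in both genotypes, and no ATP synthase or complex II gene passed.

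The path between these ages was not even. From E14.5 to E18.5, 73 of the 89 genes had a lower mean in controls, and 7324 of all 14292 genes (medians -0.14 and -0.01). Of the 89 only Ndufaf4 passed, beside 11.0% of all genes (6.06% higher and 4.93% lower) and 10.7% of those reading at least 10. In Htr3a-KO 2 genes fell, Cox7a1 and Ndufaf3, beside 15.1% of all genes (6.26% higher and 8.88% lower) and 11.5% of those reading at least 10. In that genotype 65 of the 89 genes had a lower mean, and 9061 of all 14292 genes. The Htr3a-KO median was -0.06 over the 89 genes and -0.10 over all genes, so there the members' median was the less negative, unlike in controls. The count of 2 genes called in Htr3a-KO was 1 without E14.5 array 1 and 0 without E18.5 array 1 or 2. Ndufs5, an accessory subunit, had the next smallest p in controls, with readings of 8.56, 8.75 and 8.66 at E14.5 and 8.38, 8.15 and 7.93 at E18.5 (difference -0.50, adjusted p = 0.0676).

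From E18.5 to P2 the median was positive. In controls 66 of the 89 genes had a higher mean at P2, and 6301 of all 14292 genes (medians 0.17 and -0.04). Of the 89, 5 rose and 2 fell, beside 19.7% of all genes (9.96% higher and 9.75% lower) and 20.0% of those reading at least 10. The risers were Uqcr11 (0.65) and Uqcrq (0.58), small subunits of complex III, Atp5e (0.54), the epsilon subunit of the ATP synthase, and the complex I subunits Ndufa13 (0.39) and Ndufa1 (0.38), with adjusted p from 0.0193 to 0.0466 in limma. Uqcr11 read 10.38, 10.42 and 10.45 at E18.5 but 10.99, 11.41 and 10.80 at P2. Atp5e read 10.29, 10.19 and 10.15 at E18.5 but 10.70, 10.95 and 10.61 at P2. Both were higher on every P2 control array than on any E18.5 control array, and P2 array 2 was the highest for each of the 5 risers.

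These calls rested on few arrays. The 7 calls became 1 without E18.5 control array 1, 0 without E18.5 control array 2, 1 without P2 control array 2 and 11 without P2 control array 1. With quantile normalization 12 rose and 1 fell, and with median centring 3 and 3. The actin 3' minus 5' reading was 0.59 to 1.04 in E18.5 controls and 0.90 to 1.22 in P2 controls, ranges that overlap. The Gapdh reading was 1.64 to 1.84 and 1.77 to 2.2, which also overlap. With the Gapdh 3' minus 5' reading as a covariate, 0 rose and 1 fell.

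In Htr3a-KO, 5 genes rose and 0 fell from E18.5 to P2, beside 28.5% of all genes (13.5% higher and 15.0% lower) and 30.1% of those reading at least 10. They were Ndufa4l2 (0.49), Uqcrc1 (0.46), Cox6a2 (0.45), Cox8c (0.34) and Ndufa1 (0.29), and of these Ndufa1 also rose in controls (1 of 5, and 1 of the 7 called in controls). Over all genes 2009 were called in both at this step, of 2818 in controls and 4070 in Htr3a-KO. Uqcrc1, a core protein of complex III, read 11.41, 11.45 and 11.60 at E18.5 but 12.13, 11.90 and 11.80 at P2, without overlap. This count of 5 was 1 without E18.5 array 1, 3 without E18.5 array 2 or 3, 1 without P2 array 1 or 2 and 10 without P2 array 3. On Htr3a-KO array 3 of E18.5 Uqcr11 read 11.01 and Atp5e 10.92, above the other E18.5 arrays of that genotype. The Gapdh 3' minus 5' reading of that array was 2.12, the highest of its age.

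None of the genes passed the adjusted threshold for genotype in the unweighted fit. With array weights 4 genes passed at E18.5 (Sdhd, Cox4i2 and Uqcrc2 lower and Ndufc1 higher) and 1, Sdhd, for the mean over ages. Of these, Cox4i2 was dim, with readings of 5.49 to 5.93 over all arrays, near the filter at 5.255. By limma without weights, 0 of 89 passed at E14.5, at E18.5 and at P2, beside 0.0140%, 0.0210% and 0.0350% of all genes, with 2, 7 and 1 at an unadjusted p under 0.05. For the mean over the 3 ages 0 of 89 passed, beside 0.294% of all genes (0.161% higher and 0.133% lower), with 2 at an unadjusted p under 0.05. The 95% interval of that mean difference lay within 0.5 of 0 for all 89 genes and for 89.2% of all genes tested. The interaction test of the age steps between genotypes called 0 of 89 for E14.5 to E18.5 and 0 for E18.5 to P2 (limma), beside 0.00700% and 0% of all genes, and 1 and 4 at an unadjusted p under 0.05.

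The largest genotype difference over the 3 ages was that of Sdhd, a membrane anchor of complex II. At E14.5, Sdhd read 10.77, 10.73 and 10.97 in controls against 10.51, 10.71 and 10.31 in Htr3a-KO. At E18.5 the control values were 10.91, 10.93 and 10.82 and the Htr3a-KO values 10.62, 10.50 and 10.53. At P2 they were 10.96, 10.90 and 10.74 against 10.78, 10.69 and 10.71. Every Htr3a-KO array was below every control in both embryonic groups, and the genotypes overlapped at P2. The mean difference was -0.26 ± 0.06 (SE), with an adjusted p of 0.113 in limma that ran from 0.0181 to 0.475 over the alternatives, the lowest with array weights. The second, dimmer Sdhd probe set gave -0.17.

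Sdhd lies on chromosome 9, as does Htr3a, with 15 protein-coding genes of the RefSeq annotation between them. Of these, 7 were tested, and 1 was higher and 1 lower in Htr3a-KO past the threshold. The other members on chromosome 9 differed by 0.11 (Atp5l), -0.07 (Cox5a), -0.01 (Cox7a2), -0.09 (Ndufaf3) and -0.05 (Uqcrc1), none of which passed.

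Lists of other mitochondrial and metabolic genes differed in how many members passed. Of all 14292 genes, 39.2% passed from E14.5 to P2 in controls (2577 genes were higher and 3024, or 21.2%, were lower). In Htr3a-KO 41.5% passed (15.6% higher and 26.0% lower). The list most like the members held 12 other subunits and electron carriers outside the symbol rule. Between these ages it had 1 gene higher and 0 lower in controls and 3 and 0 in Htr3a-KO. From E14.5 to P2 in controls, 21 of 37 assembly factors outside the symbol rule fell and 1 rose (20 fell and 1 rose in Htr3a-KO), with a median of -0.43. They included Atpaf2, a chaperone of the ATP synthase, which fell by 0.77 (adjusted p = 4.77e-05, limma), and Sdhaf3, a complex II factor, which fell by 0.86. Of 76 mitochondrial ribosomal proteins, 32 fell and 2 rose (36 and 1), with a median of -0.31, and Mrps35 fell by 0.71. Of 15 fatty acid oxidation genes, 7 rose and 0 fell (8 and 0), among them Acadl (6.13-fold) and Cpt1a (4.50-fold), the gate for fatty acid entry. Of 18 tricarboxylic acid cycle genes, 6 rose and 2 fell, with Pcx 3.37-fold and Pdha1 1.90-fold higher, and of 18 glycolysis genes 8 rose and 1 fell.

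Of 20 regulators of mitochondrial biogenesis, 3 rose and 8 fell in controls from E14.5 to P2. Of all genes 39.2% passed there, and 21.2% were lower. Ppargc1a, the coactivator that drives many of these subunit genes, rose by 1.99 (3.96-fold, adjusted p = 8.78e-05, limma), and Gabpb1, a subunit of the ETS factor GABP, fell by 1.23. Gpd2, a glycerol phosphate dehydrogenase that feeds electrons to the chain, rose 3.37-fold and was the 1 of those 12 carriers and subunits that passed in controls. ND5 was the one mitochondrially encoded subunit with a named probe set. It read 11.83 to 12.71 in E14.5 controls and 13.25 to 13.48 in P2 controls, a rise of 1.09 (adjusted p = 0.00391, limma), and its difference of 0.67 in Htr3a-KO did not pass.

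Markers of other cells moved over the same ages. Of all 14292 genes, 2577 rose and 3024 fell in controls from E14.5 to P2. In this comparison 10 of 11 excitatory neuron markers fell, and their mean reading went from 10.25 to 10.85 at E14.5 to 8.45 to 8.65 at P2. Astrocyte markers rose in 8 of 9 cases (mean 7.06 to 7.78 at E14.5 and 10.01 to 10.81 at P2) and oligodendrocyte lineage markers in 7 of 8 (6.76 to 6.97 and 10.39 to 10.72). Vessel markers rose in 5 of 9 (6.04 to 6.80 and 8.08 to 9.11) and microglia markers in 7 of 12 (6.13 to 7.28 and 7.01 to 9.55). In Htr3a-KO the microglia markers rose in 0 of 12 and fell in 1, beside 15.6% and 26.0% of all genes. Their mean was 7.05 to 8.89 on the E14.5 Htr3a-KO arrays, which overlaps the controls of that age, and 6.64 to 7.23 at P2. The vessel marker mean was 6.87 to 8.20 on the E14.5 Htr3a-KO arrays, above every control of that age. The part of these cells in the age changes and genotype differences of the pathway's genes, Acadl and Cpt1a included, was not tested.

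Most of these genes have more than 1 probe set, which gives a check within the array. Of the 50 genes with several probe sets past the filter, 30 had the same sign of the control difference from E14.5 to P2 in all of them, and the median span between probe sets was 0.19. In the other 20 the probe sets differed in sign. This span is larger than the median size of the control difference, 0.12. Another 10 probe sets that the annotation gives to a member and a second gene were not used, and 20 members were read by probe sets marked as shared or mixed in sequence (_s_at or _x_at), Cox8a, Cox7c, Uqcrq, Atp5e, Ndufa13 and Ndufaf7 among them.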

How the data were processed

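Gene expression was measured on 18 arrays, with 6 groups of 3. Per the series' design text, RNA was hybridised to the Mouse Genome 430 2.0 array, and the authors used Partek Genomic Suite 6.6 with RMA (robust multi-array average). The deposited values are thus log2 intensities and were used unchanged. Precision is limited by the number of arrays.

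The dimmest 30% of probe sets (mean under 5.255) were left out, and the brightest single-gene probe set stood for each gene. Of 45101 probe sets, 64 were controls, 34945 named 1 gene, 932 several and 9160 none, by the array's annotation. The 14292 genes left were fitted together (limma 3.58.1, R 4.3.3) as 6 group means with 12 residual degrees of freedom. Moderated p-values were Benjamini-Hochberg adjusted across these genes, and the fit was tested on simulated data. The comparisons were the ages within each genotype, the genotypes at each age and on average, and the difference of the age steps. Members past the threshold were named (up to 10 in each direction), otherwise the 5 smallest p, together with complex II, cytochrome c, paralogs, assembly factors and up to 3 genes per list. A few further members are named as examples chosen after their values were seen. The members and lists were chosen with earlier results of these data known. Replicate numbers did not pair the arrays.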

Additional observations from a re-analysis of the deposited data

How the results depend on the processing

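No gene named for a comparison changed sign under the alternatives run, but of 237 alternative medians over the members 26 did, all between medians within 0.07 of 0; the P2 against E14.5 medians of both genotypes, for one, turned negative with median centring. In the age comparisons the number of genes called moved by over 1.5 times as follows. With array weights it was 7 (E18.5 against E14.5), 18 (P2 against E18.5) and 16 (P2 against E14.5) in controls, and 9 and 10 for the first and second in Htr3a-KO. With an adjusted p under 0.10 it was 3, 20 and 22 in controls, and 10 for P2 against E18.5 in Htr3a-KO. With a change of at least 1.5-fold it was 1 and 2 in controls (P2 against E18.5 and against E14.5), 0, 0 and 1 in Htr3a-KO, and 3 for the mean of both genotypes. For P2 against E18.5 in controls it was 13 with quantile normalization, 1 with the Gapdh covariate and 4 with only the arrays compared. In Htr3a-KO it was 8 for that step with probe sets averaged per gene, and 1 for E18.5 against E14.5 with the lowest 50% of probe sets left out. Array weights called 4 genes for genotype at E18.5 and 1, Sdhd, for the mean over ages. The cause was not tested.

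Same-numbered arrays of the 2 genotypes did not deviate together (correlations from -0.49 to 0.36 over 9 pairs), so the numbers do not pair them. The replicate block gave 3 calls for P2 against E18.5 in Htr3a-KO and otherwise stayed within 1.5 times. Leaving out 1 array at a time gave 1 to 1, 0 to 11 and 6 to 11 calls for the 3 control steps (E18.5 against E14.5, P2 against E18.5, P2 against E14.5), 0 to 2, 1 to 10 and 5 to 12 in Htr3a-KO, 16 to 28 for the mean of both genotypes, and 0 for each genotype comparison and step difference. No filter and trended, robust variance moved no count by over 1.5 times. With 3 arrays a group, changes of the size seen for most subunits are hard to call.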
